A study of Homo sapiens with 16 samples.

Results

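The NF-kB transcription factors and a set of genes that regulate them or respond to them were examined in MDA-MB-231 cells selected on soft or stiff extracellular matrix (ECM), modeled by gels. The set held 10 genes, found by gene symbol, among the 19468 genes of the FPKM values (fragments per kilobase of gene, corrected for library size, a measure of level per length). All 10 reached an FPKM of 1 in 4 or more of the libraries, the filter that left 12604 genes to test. VCAM1 did so through its ancestral libraries alone, since all 8 selected libraries were below 1, so a gene of its level in selected cells had to differ to be tested. They are the subunit genes NFKB1, NFKB2 and RELB, the inhibitor genes NFKBIA and TNFAIP3, the signaling adaptor TRAF1, the ubiquitin ligase genes BIRC2 and BIRC3, and the adhesion molecule genes ICAM1 and VCAM1.

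NF-kB factors are dimers of Rel proteins that are held in the cytoplasm by IkB proteins in resting cells. In the canonical arm, receptors for TNF, IL-1 or bacterial products activate the IKK kinase complex, which marks IkB for destruction and frees dimers such as p50:RelA to enter the nucleus. In the noncanonical arm, the kinase NIK, encoded by MAP3K14, drives processing of p100 (NFKB2) to p52, which pairs with RelB, while BIRC2 and BIRC3 (cIAP1 and cIAP2) act with TRAF proteins to keep NIK low. NFKBIA, TNFAIP3, BIRC3, TRAF1, RELB, NFKB1, NFKB2, ICAM1 and VCAM1 are themselves textbook NF-kB targets, so that several of them form feedback loops. MDA-MB-231 is a human breast adenocarcinoma cell line of mesenchymal character that is known for high basal NF-kB activity.

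Total RNA was sequenced in 16 libraries, 4 in each of 4 groups of unmodified cells, whose genotype label is WT. Ancestral cells, the starting population, were cultured on soft gels (1 kPa) or on stiff gels (308 kPa), and soft-selected and stiff-selected cells had been grown for 75 d on gels of the matching stiffness. Every gel was polyacrylamide coated with type I collagen. The selected cells are populations, and the paper describes replicate lines that were passaged on each stiffness. The clonal make-up of these populations was not analysed here. The deposited columns of stiff libraries carry the name 3kpa, while the labels' protocol and the methods give 308 kPa. Soft-selected cells on stiff gels and stiff-selected cells on soft gels were not analysed here, so that in the comparison of both selected populations the population and the stiffness change together.

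Each library held 34284794 to 55473023 reads in genes, recovered from the steps of the FPKM values. The library names of all ancestral libraries begin with 1 code and those of all selected libraries with another. What the code stands for is not given in the sources used here, and a difference that goes with it cannot be told apart from selection. Whether the 4 libraries of a group came from separate cultures is not given in the sources, so that p-values measure the spread between these samples only, and that spread may be technical. Checked against markers, the mesenchymal genes VIM, CDH2, ZEB1 and FN1 summed to an FPKM of 2205 to 3016 (CDH2 below 1 in every library), the keratin genes KRT8 and KRT18 to 769.6 to 1004, and the epithelial genes CDH1, EPCAM, ESRP1 and ESRP2 to 13.5 to 20.03 (CDH1 and ESRP1 below 1 in every library). The receptor genes ESR1 and PGR stayed below 1 as well, while ERBB2 did not. The blood cell markers PTPRC and CD3E were below 1 in all libraries, while CD14 and CD68, which macrophages express, were not and differed between groups. CD68 was at 88.8 to 103.5 in ancestral and 120.6 to 152.7 in soft-selected cells, and at 60.4 to 84.7 and 92.9 to 109.4 on stiff gels. CD14 was at 2.79 to 3.98 and 0.481 to 1.17 on soft gels, and at 2.19 to 3.33 and 0.822 to 1.93 on stiff gels. Their part in the results was not tested.

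The promoters of 9 of the 10 genes are in the RefSeq table of promoter sequences (GRCh38.p14). The kB motif is the decameric sequence that NF-kB dimers bind. Its consensus GGGRNNYYCC (R is A or G, Y is C or T, N is any base) was searched on both strands from 250 bases before the start of the gene to 50 bases after it. It matched in BIRC3, VCAM1, NFKB1, NFKBIA and TNFAIP3, 5 of 9 promoters (55.6%), against 13.01% of the 9952 tested genes with a promoter in the table and 10.8% of all 27305 promoters. BIRC3 and TNFAIP3 each held 2 matches, as did, with 2 or more, 2.14% of the tested genes. TATAAA, searched in the 60 bases before the start, was found in VCAM1 and ICAM1, against 1.76% of the tested genes. The 250 bases before the start are shown for 6 genes because the results turn on these genes, namely the neighbouring pair BIRC3 and BIRC2, of which 1 has the motif, the genes VCAM1 and TRAF1, and the inhibitors NFKBIA and TNFAIP3. Capitals mark matches to the kB motif on either strand. BIRC3 (chromosome 11, plus strand, chr11:102317234-102317483) has its matches at -199 to -190 and -135 to -126 from the start, and BIRC2 (plus strand, chr11:102346964-102347213) has none. VCAM1 (plus strand, chr1:100719492-100719741) has 1 at -62 to -53, TRAF1 (minus strand, chr9:120929172-120929421) has none, NFKBIA (minus strand, chr14:35404750-35404999) has 1 at -81 to -72, and TNFAIP3 (plus strand, chr6:137867009-137867258) has 2, at -67 to -58 and -55 to -46. A match describes the letters of the sequence and does not show that a factor binds there. Sites that depart from the consensus were not searched, so that a promoter without a match may still hold a site.
BIRC3: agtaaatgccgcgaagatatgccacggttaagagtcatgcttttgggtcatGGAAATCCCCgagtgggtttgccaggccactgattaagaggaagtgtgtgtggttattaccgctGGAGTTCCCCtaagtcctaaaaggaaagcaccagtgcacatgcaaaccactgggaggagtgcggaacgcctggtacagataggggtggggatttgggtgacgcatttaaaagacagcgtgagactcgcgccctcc
BIRC2: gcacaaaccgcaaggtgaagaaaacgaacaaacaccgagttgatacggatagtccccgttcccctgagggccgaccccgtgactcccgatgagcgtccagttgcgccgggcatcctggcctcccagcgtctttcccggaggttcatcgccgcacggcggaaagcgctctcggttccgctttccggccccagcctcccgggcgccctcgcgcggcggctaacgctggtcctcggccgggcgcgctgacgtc
VCAM1: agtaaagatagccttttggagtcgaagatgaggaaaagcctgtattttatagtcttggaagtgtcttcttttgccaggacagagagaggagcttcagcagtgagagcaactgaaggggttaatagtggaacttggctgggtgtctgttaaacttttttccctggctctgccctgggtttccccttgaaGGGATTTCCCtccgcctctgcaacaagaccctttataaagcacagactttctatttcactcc
TRAF1: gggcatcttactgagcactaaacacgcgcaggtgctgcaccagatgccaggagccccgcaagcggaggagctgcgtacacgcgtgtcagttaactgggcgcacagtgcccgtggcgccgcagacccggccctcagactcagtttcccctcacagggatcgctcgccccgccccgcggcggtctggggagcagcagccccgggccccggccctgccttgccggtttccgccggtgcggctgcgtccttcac
NFKBIA: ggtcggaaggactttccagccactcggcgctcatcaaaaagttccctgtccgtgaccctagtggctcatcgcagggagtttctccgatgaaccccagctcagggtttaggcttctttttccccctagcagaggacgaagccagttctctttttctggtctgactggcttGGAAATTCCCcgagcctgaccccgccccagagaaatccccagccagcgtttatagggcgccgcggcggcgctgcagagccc
TNFAIP3: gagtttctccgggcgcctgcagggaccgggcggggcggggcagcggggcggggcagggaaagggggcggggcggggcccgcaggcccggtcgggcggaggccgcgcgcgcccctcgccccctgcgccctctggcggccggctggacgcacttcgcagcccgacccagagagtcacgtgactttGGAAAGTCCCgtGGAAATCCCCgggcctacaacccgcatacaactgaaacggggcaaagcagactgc

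The genes covered a wide range of levels. NFKBIA, the most abundant transcript of the set, had the highest mean FPKM of the 10 genes in each of the 4 groups, from 122.9 in stiff-selected cells to 186.5 in ancestral cells on soft gels. VCAM1 had the lowest in each group, from 0.190 to 4.65. BIRC2 and ICAM1 took the next places below NFKBIA, and their libraries overlapped in every group but the stiff-selected one, where BIRC2 was at 66.5 to 68.4 and ICAM1 at 52.1 to 65.3. In ancestral cells BIRC3 and NFKB2 overlapped in level (means of 54.9 and 51.8 on soft gels, 52.05 and 52.1 on stiff gels). In the selected populations the libraries of BIRC3 lay below those of NFKB2, at means of 27.2 against 46.6 and 23.7 against 43.8. BIRC3 overlapped NFKB1 in stiff-selected cells (23.7 and 20.4). The other overlaps between genes next to each other in the order were those of NFKB1 with RELB in ancestral cells on soft gels and of TRAF1 with TNFAIP3 in soft-selected cells.

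**Figure D1:**
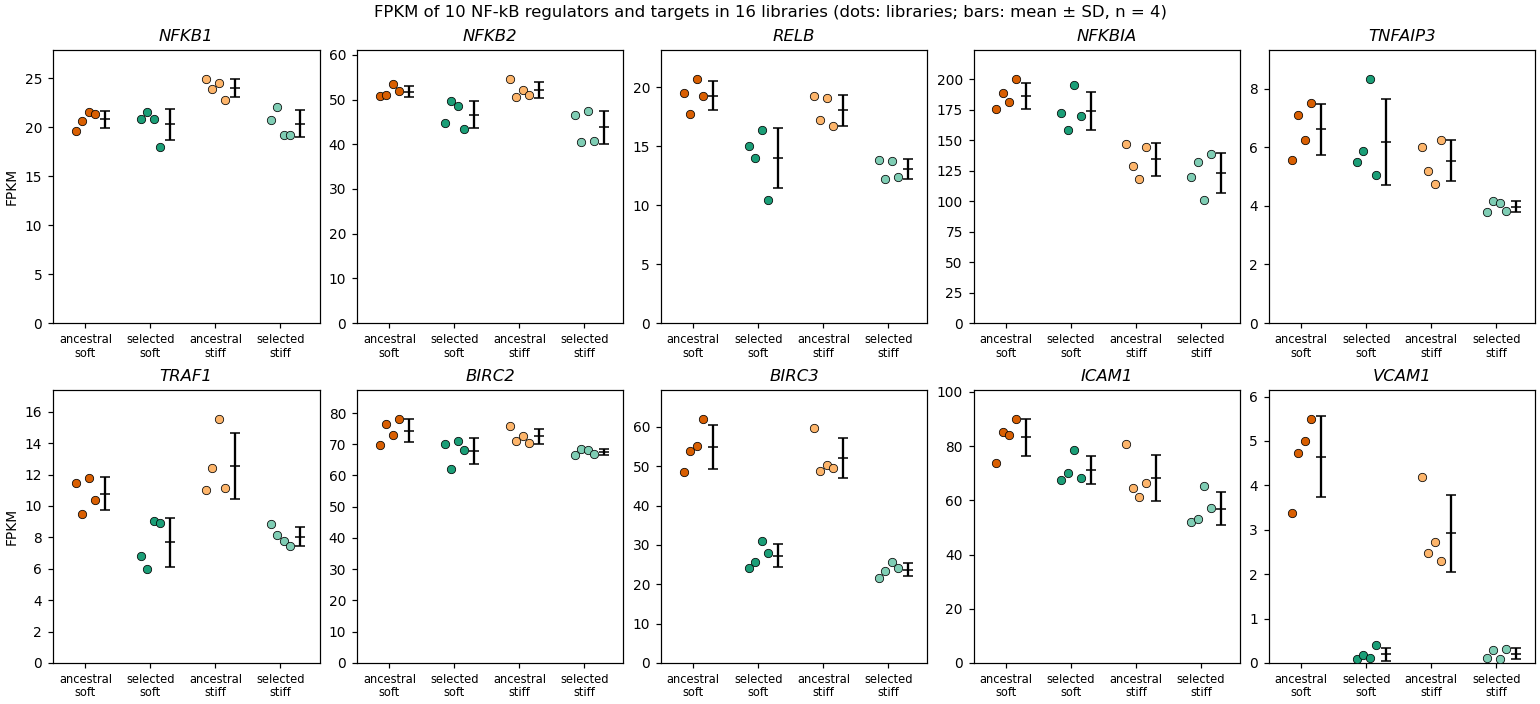
FPKM of the 10 genes (vertical axis, from 0 in each panel) in the 4 groups, with a point for each library and bars for the mean and SD of 4 libraries. BIRC3 lies at 48.6 to 62.0 in the 8 ancestral libraries and at 21.6 to 31.0 in the 8 selected ones, VCAM1 at 2.29 to 5.49 and at 0.0797 to 0.404, and NFKBIA is higher on soft than on stiff gels with no overlap.

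In soft-selected cells compared with ancestral cells on soft gels, VCAM1, BIRC3, RELB and TRAF1 were lower, and no gene of the set was higher. The mean FPKM of VCAM1 fell by 95.9%, that of BIRC3 fell by 50.4%, that of RELB fell by 27.6% and that of TRAF1 fell by 28.7%. In bulk RNA, fewer cells that express a gene and less RNA of it per cell cannot be told apart. Called here means a Benjamini-Hochberg adjusted p under 0.01 over all genes tested, from limma on log2(FPKM + 1), with which 36.9% of the 12604 genes tested were called, 21.5% higher and 15.4% lower. With libraries scaled by the median of ratios, the split of all calls was 2124 higher and 2475 lower in place of 2708 and 1944. All 10 genes had a log2 fold change below 0, against 44.7% of the genes tested, although NFKB1 was above 0 with TPM (0.0071) and without soft-selected replicate 4 (0.019) and TNFAIP3 with array weights (0.032), and the median was -0.19 over the 10 genes and 0.04 over all genes tested. In 5 of the 10, the 4 selected libraries lay below the 4 ancestral ones without overlap, as they did for 18.7% of the genes tested. VCAM1, which passed the filter through its ancestral libraries alone, is in each of these counts. The 10 genes were also chosen with earlier results of these data known.

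In stiff-selected cells compared with ancestral cells on stiff gels, 6 genes were lower and none was higher. They were VCAM1, BIRC3, RELB and TRAF1 again, with NFKB1 and NFKB2, whose mean FPKM fell by 15.3% and fell by 15.9%. Of the genes tested, 29.1% were called, 18.4% higher and 10.8% lower. Scaling by the median of ratios gave 1662 higher and 2016 lower calls over all genes in place of 2313 and 1356. All 10 genes were again below 0 on the log2 scale, against 42.1% of the genes tested, with medians of -0.32 and 0.05. Of the genes tested, 34.8% were below 0 in both comparisons. The comparisons share no library but set the same name codes against each other. In 8 of the 10 genes the groups did not overlap with the selected libraries lower, which held for 13.5% of the genes tested. VCAM1 is in these counts too, with the same limit of the filter.

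**Figure D2:**
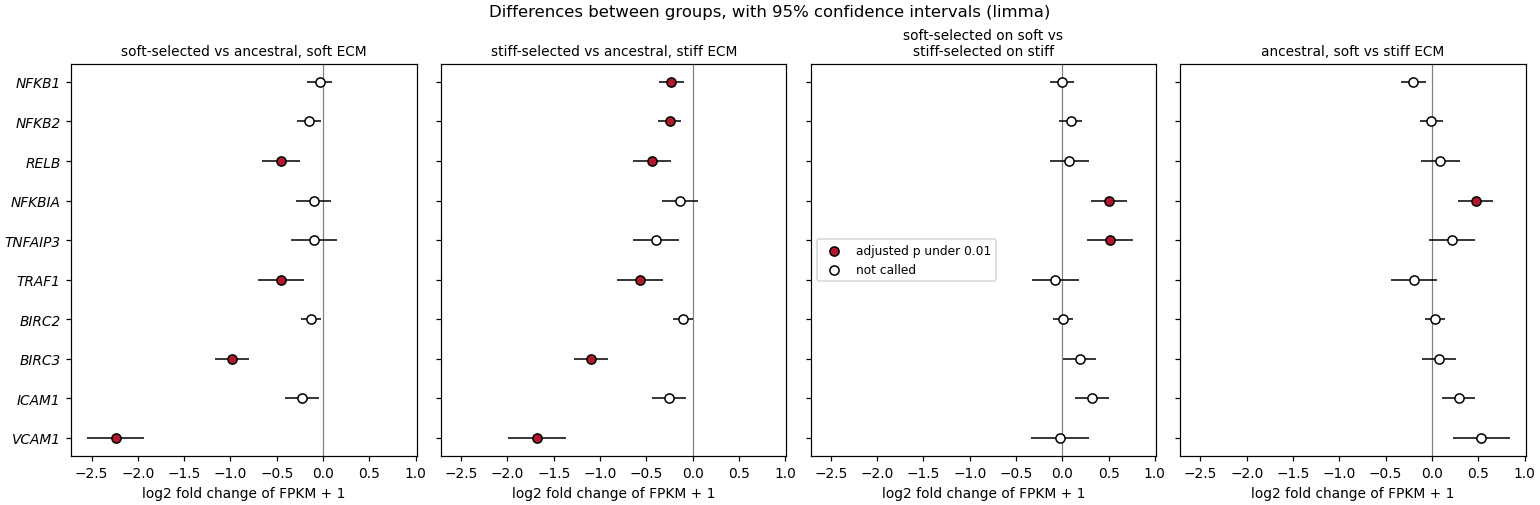
Log2 fold changes of FPKM + 1 for the 10 genes in 4 comparisons (horizontal axes), with 95% confidence intervals from limma and red points at an adjusted p under 0.01. VCAM1 and BIRC3 lie farthest to the left in both comparisons of selected with ancestral cells, and NFKBIA and TNFAIP3 to the right where soft-selected are compared with stiff-selected cells.

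Among the subunit genes, RELB was lower in both selected populations. RelB is the partner of p52 in the noncanonical arm. Its FPKM was 19.5, 17.8, 20.7 and 19.2 in ancestral cells on soft gels (replicates 1 to 4) and 15.1, 13.98, 16.4 and 10.5 in soft-selected cells. On stiff gels it was 19.2, 17.2, 19.1 and 16.7 in ancestral cells and 13.8, 12.2, 13.7 and 12.4 in stiff-selected cells. Each selected library lay below each ancestral library on the same gel, and soft-selected replicate 4 was the lowest of the 16. The log2 change was -0.45 (SE 0.10, limma adjusted p = 0.00112) on soft gels and -0.44 (SE 0.10, limma adjusted p = 0.00188) on stiff gels. The difference between these effects was -0.01 (95% confidence interval -0.31 to 0.28).

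NFKB2 and NFKB1 encode p100/p52 and p105/p50, precursors that act as inhibitors until they are processed to subunits. NFKB2 was at 50.8, 51.1, 53.4 and 51.9 in ancestral cells on soft gels and at 44.8, 49.7, 48.6 and 43.3 in soft-selected cells. With stiff gels it was at 54.6, 50.6, 52.2 and 51.0 in ancestral cells and at 46.5, 40.6, 47.3 and 40.7 in stiff-selected cells. The groups did not overlap on either gel. Stiff-selected cells differed by -0.25 on the log2 scale (SE 0.06, limma adjusted p = 0.00285), and soft-selected cells by -0.15, which was not called (limma adjusted p = 0.042) but was with voom on the recovered reads (-0.21, adjusted p = 0.00891). The NFKB2 call on stiff gels was lost without ancestral stiff replicate 1 (adjusted p = 0.0123), stiff-selected replicate 2 (0.0135) or stiff-selected replicate 4 (0.0121).

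NFKB1 stood out in ancestral cells on stiff gels. There it was at 24.9, 23.97, 24.5 and 22.8, above all 12 other libraries. Ancestral cells on soft gels had 19.6, 20.7, 21.6 and 21.3, soft-selected cells 20.8, 21.6, 20.9 and 18.04, and stiff-selected cells 20.8, 22.1, 19.3 and 19.3. The 3 other groups overlapped. Stiff-selected cells differed from ancestral cells on stiff gels by -0.23 (SE 0.06, limma adjusted p = 0.00749). Soft-selected cells differed from ancestral cells on soft gels by -0.03 (SE 0.06, limma adjusted p = 0.667). Ancestral cells on soft gels differed from those on stiff gels by -0.20 (limma adjusted p = 0.0307, not called). Of 11 other alternatives, 2 called that last difference, and adjusted p ranged from 0.000468 to 0.0359. The difference between both effects of selection was 0.20 (95% confidence interval 0.01 to 0.39, limma adjusted p = 0.369). The call on stiff gels lay close to the threshold. It was lost without any 1 of ancestral soft replicates 2, 3 or 4, ancestral stiff replicates 1, 2 or 3 and stiff-selected replicates 1, 3 or 4, with adjusted p from 0.0102 to 0.0279, and also with TPM (0.0189) and with only the groups compared in the fit (0.0131). The ratio of NFKB2 to NFKB1, both per length, was 2.49 ± 0.0671 (SD, n = 4) in ancestral cells on soft gels and 2.17 ± 0.0582 on stiff gels, and 2.30 ± 0.105 and 2.16 ± 0.259 in soft-selected and stiff-selected cells.

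NFKBIA, the gene of the inhibitor IkB-alpha, was higher on soft than on stiff gels in ancestral as well as in selected cells. It was at 176, 189, 181 and 200 in ancestral cells on soft gels and at 146, 129, 118 and 145 on stiff gels. Soft-selected cells on soft gels had 172, 158, 196 and 170, and stiff-selected cells on stiff gels had 120, 132, 101 and 138. All 8 libraries on soft gels lay above all 8 on stiff gels. Selected cells differed from ancestral cells on the same gel by -0.10 on soft (95% confidence interval -0.29 to 0.09, limma adjusted p = 0.37) and by -0.13 on stiff gels (-0.33 to 0.06, limma adjusted p = 0.243). The ratio of NFKBIA to NFKB1, a known target to a subunit gene, was 8.96 ± 0.421 (SD, n = 4) and 8.61 ± 1.00 on soft gels in ancestral and soft-selected cells, and 5.61 ± 0.656 and 6.04 ± 0.819 on stiff gels in ancestral and stiff-selected cells. As descriptions of 2 genes per library, these ratios were not tested.

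TNFAIP3 encodes A20, a ubiquitin-editing enzyme that shuts off canonical signaling. Its FPKM was 5.57, 7.10, 6.27 and 7.52 in ancestral cells on soft gels and 6.02, 5.21, 4.74 and 6.24 on stiff gels. It was 5.51, 5.87, 8.33 and 5.05 in soft-selected cells and 3.78, 4.17, 4.09 and 3.84 in stiff-selected cells. The 4 stiff-selected libraries were the lowest of the 16, and soft-selected replicate 3 was the highest. Stiff-selected cells differed from ancestral cells on stiff gels by -0.39 (SE 0.12), which missed the threshold (limma adjusted p = 0.0128). It passed after scaling by the median of ratios (0.00617), quantile normalization (0.00487) and with only the groups compared in the fit (0.00532), with array weights (0.00469) and voom (0.00497), and also without ancestral stiff replicate 3 (0.00914) or without soft-selected replicate 3 (0.00311) or 4 (0.0096). On soft gels the value was -0.10 (limma adjusted p = 0.514), and the difference between both effects was 0.30 (95% confidence interval -0.06 to 0.65).

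TRAF1 was lower in both selected populations. TRAF1 is an adaptor that binds TRAF2 and through it BIRC2 and BIRC3. It was at 11.5, 9.48, 11.8 and 10.4 in ancestral cells on soft gels and at 6.81, 5.96, 9.05 and 8.91 in soft-selected cells. On stiff gels it was at 10.99, 12.4, 15.5 and 11.2 in ancestral cells and at 8.86, 8.12, 7.75 and 7.47 in stiff-selected cells. All 8 selected libraries lay below all 8 ancestral ones. The log2 change was -0.45 (SE 0.12, limma adjusted p = 0.00451) on soft gels and -0.57 (SE 0.12, limma adjusted p = 0.00103) on stiff gels. The call on soft gels was lost without ancestral soft replicate 1 (adjusted p = 0.0155) or 3 (0.0172) and without soft-selected replicate 1 (0.0157) or 2 (0.0168), and also with no filter (0.0107) and with only the groups compared in the fit (0.0113).

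BIRC3 was lower in both selected populations. It encodes cIAP2, a ubiquitin ligase that limits cell death and noncanonical signaling. Its FPKM was 48.6, 54.0, 55.1 and 62.0 in ancestral cells on soft gels and 24.1, 25.8, 31.0 and 28.04 in soft-selected cells. On the stiff gels it was 59.7, 48.7, 50.3 and 49.5 in ancestral cells and 21.6, 23.5, 25.8 and 24.1 in stiff-selected cells. The groups were far apart, with the highest selected library at 31.0 and the lowest ancestral one at 48.6. Means were 54.9 ± 5.52 and 27.2 ± 2.98 (SD, n = 4) on soft gels, a log2 change of -0.99 (SE 0.09, limma adjusted p = 9.94e-08), and 52.1 ± 5.14 and 23.7 ± 1.71 on stiff gels, a log2 change of -1.10 (SE 0.09, limma adjusted p = 7.73e-08). The difference between both effects was 0.11 (95% confidence interval -0.15 to 0.37, limma adjusted p = 0.758).

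BIRC2 encodes cIAP1, the close paralog of BIRC3. It was at 69.9, 76.5, 72.8 and 78.1 in ancestral cells on soft gels and at 70.0, 62.0, 71.1 and 68.1 in soft-selected cells, which overlapped. On stiff gels it was at 75.8, 71.2, 72.5 and 70.5 in ancestral cells and at 66.5, 68.4, 68.1 and 67.0 in stiff-selected cells, which did not. The log2 fold changes of -0.13 (95% confidence interval -0.24 to -0.02, limma adjusted p = 0.0392) and -0.10 (-0.21 to 0.01, limma adjusted p = 0.118) were not called. With scaling by the median of ratios the value on soft gels was -0.18 and was called (adjusted p = 0.00852), as it was with limma's voom on the recovered reads (0.00798). The ratio of BIRC3 to BIRC2, both per length, was 0.738 ± 0.0464 (SD, n = 4) and 0.717 ± 0.0475 in ancestral cells on soft and on stiff gels, and 0.402 ± 0.0395 and 0.352 ± 0.0228 in soft-selected and stiff-selected cells. No library of the selected cells had a ratio above 0.436 and none of the ancestral cells had one below 0.684. The paralogs are similar in sequence, and whether reads were split between them was not tested.

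BIRC3 and BIRC2 lie next to each other on chromosome 11, and the genes on either side of the pair were not called. YAP1, the transcriptional coactivator on the other side of BIRC3, was at 156 to 158 in the means of all 4 groups, with log2 fold changes of -0.02 and 0.02 (limma adjusted p = 0.802 and 0.764). TMEM123, beyond BIRC2, had 0.12 and 0.06, also not called. Farther out, ARHGAP42, a RhoGAP gene, was lower in both selected populations (-0.97 and -0.79, limma adjusted p = 2.87e-07 and 5.69e-06), MMP1 was higher (3.03 and 4.27, limma adjusted p = 1.17e-08 and 1.01e-09) and DCUN1D5 was lower (-0.26 and -0.24, limma adjusted p = 0.00287 and 0.00608). CEP126 was called on soft gels alone (0.42, limma adjusted p = 0.00836; 0.31 on stiff gels, adjusted p = 0.0473) and DYNC2H1 on stiff gels alone (0.35, limma adjusted p = 0.00408; 0.26 on soft gels, adjusted p = 0.0199). C11orf70 was not called in either (-0.42 and 0.00). The order of genes was taken from RefSeq on GRCh38.p14, while the FPKM values rest on hg19.

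**Figure D3:**
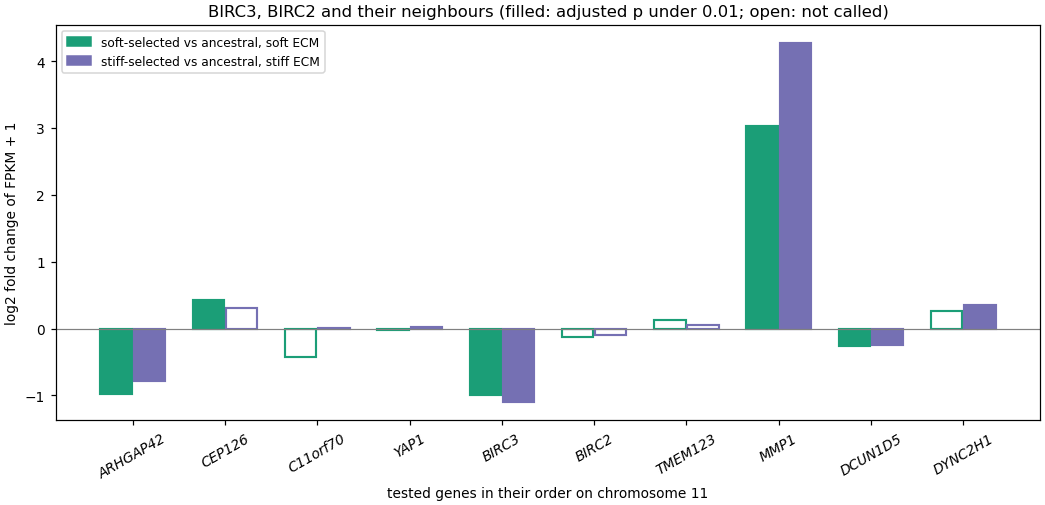
Log2 fold changes of FPKM + 1 (vertical axis) for BIRC3, BIRC2 and the 4 tested genes on each side, in their order on chromosome 11, for selected against ancestral cells on soft gels (green) and on stiff gels (purple), with filled bars at an adjusted p under 0.01. BIRC3 lies at -0.99 and -1.10 between YAP1 (-0.02 and 0.02) and BIRC2 (-0.13 and -0.10).

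VCAM1 was close to the limit of detection in selected cells. VCAM1 is an adhesion molecule of the immunoglobulin family that binds integrin alpha4-beta1. Its FPKM was 3.37, 4.73, 5.00 and 5.49 in ancestral cells on soft gels and 0.0797, 0.173, 0.105 and 0.404 in soft-selected cells, which rests on 334 to 593 reads and on 7 to 31 reads per library. With stiff gels it was 4.20, 2.48, 2.73 and 2.29 in ancestral cells and 0.112, 0.298, 0.0993 and 0.323 in stiff-selected cells, from 251 to 439 and 8 to 27 reads. The lowest ancestral library thus had 2.29 and the highest selected one 0.404. The log2 change was -2.24 (SE 0.15, limma adjusted p = 3.89e-09) on soft gels and -1.68 (SE 0.15, limma adjusted p = 2.18e-07) on stiff gels. This scale understates changes at low FPKM: the ratios of the group means were 0.0410 and 0.0711, and voom on the recovered reads gave -4.89 and -3.997. VCAM1 is also known from activated endothelium and from stroma. The endothelial markers PECAM1, CDH5 and KDR summed to an FPKM of 2.22 to 2.40 in ancestral and 1.18 to 1.77 in soft-selected cells, and to 1.42 to 1.77 and 0.731 to 1.57 on stiff gels, with CDH5 and KDR below 1 in every library. The fibroblast markers PDGFRA, PDGFRB, DCN and LUM summed to 4.36 to 4.61 and 1.97 to 3.12 on soft gels, and to 2.81 to 3.35 and 1.18 to 2.56 on stiff gels, with PDGFRB alone reaching 1. Their part in the VCAM1 values was not tested.

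Ancestral cells had a mean VCAM1 FPKM of 4.65 ± 0.908 (SD, n = 4) on soft and 2.92 ± 0.867 on stiff gels. This difference of 0.53 on the log2 scale missed the threshold (limma adjusted p = 0.014). It passed without ancestral soft replicate 1 (adjusted p = 0.00699), the lowest of its group, or without ancestral stiff replicate 1 (0.00251), the highest of its group. Of 11 other alternatives, 1 called it, and adjusted p ranged from 5.32e-06 to 0.134. The difference between both effects of selection was -0.56 on the log2(FPKM + 1) scale (95% confidence interval -0.99 to -0.12, limma adjusted p = 0.259). With array weights it was -0.80 and was called (adjusted p = 0.00892).

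ICAM1, the ligand of leukocyte integrins such as LFA-1, was not called in either comparison of selected with ancestral cells. It was at 73.8, 85.3, 84.1 and 90.0 in ancestral cells on soft gels and at 67.6, 70.1, 78.5 and 68.3 in soft-selected cells. On stiff gels it was at 80.8, 64.7, 61.3 and 66.4 in ancestral cells and at 52.1, 53.3, 65.3 and 57.2 in stiff-selected cells. Selected and ancestral libraries overlapped on both gels. The log2 fold changes of -0.22 (SE 0.09, limma adjusted p = 0.04) and -0.25 (SE 0.09, limma adjusted p = 0.0249) were not called. On stiff gels the value passed with scaling by the median of ratios (-0.33, adjusted p = 0.00714), with array weights (0.00294), with voom (0.00563) and without stiff-selected replicate 3 (0.00885).

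When the selected populations were compared, each on its own gel, NFKBIA and TNFAIP3 were higher in the soft-selected ones and no gene of the set was lower. NFKBIA had a mean FPKM of 174.2 ± 15.6 and 122.9 ± 16.4 (SD, n = 4), a 1.42-fold difference (log2 fold change 0.51, SE 0.09, limma adjusted p = 0.00173). TNFAIP3 had a mean FPKM of 6.19 ± 1.47 and 3.97 ± 0.187, a 1.56-fold difference (log2 fold change 0.51, SE 0.12, limma adjusted p = 0.00787). Both groups were free of overlap for NFKBIA, TNFAIP3 and ICAM1, which held for 9.60% of the genes tested in this direction. Of the genes tested, 6.43% were called, 3.85% higher and 2.59% lower, or 389 higher and 438 lower with scaling by the median of ratios in place of 485 and 326. ICAM1 was at a log2 change of 0.32 (limma adjusted p = 0.0186), which passed without ancestral stiff replicate 1 (0.00931), without stiff-selected replicate 3 (0.00993) and with array weights (0.00287). The remaining genes had 95% confidence intervals that held 0, except BIRC3 (0.19, interval 0.01 to 0.37, limma adjusted p = 0.138).

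Of both calls, that of NFKBIA was the firmer. It was lost with only the groups compared in the fit (adjusted p = 0.0133) and in no other alternative or left-out library. The call of TNFAIP3 was lost in 6 of the 11 other alternatives and in 9 of 16 fits that left out 1 library, with adjusted p up to 0.0351. These libraries were ancestral soft replicates 2 and 3, ancestral stiff replicate 2, soft-selected replicates 1 and 3, and stiff-selected replicates 1 to 4, with adjusted p from 0.011 to 0.0273. Without soft-selected replicate 3 the log2 change of TNFAIP3 was 0.38 (adjusted p = 0.0255).

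In ancestral cells on soft compared with stiff gels, NFKBIA alone was called, and it was higher on soft gels. Its mean FPKM was 186.5 ± 10.5 and 134.5 ± 13.5 (SD, n = 4), a 1.39-fold difference (log2 fold change 0.47, SE 0.09, limma adjusted p = 0.00185), and it was called in all 11 alternatives and all 16 fits that left out 1 library. Of the genes tested, 11.4% were called, 7.54% higher and 3.87% lower, or 734 higher and 827 lower with scaling by the median of ratios in place of 950 and 488. ICAM1 had a log2 change of 0.29 (limma adjusted p = 0.0232) and TNFAIP3 one of 0.22 (limma adjusted p = 0.193). Without ancestral stiff replicate 1, ICAM1 had 0.37 and was called (adjusted p = 0.00435). Of the 11 alternatives, 1 called ICAM1 (lowest adjusted p = 1.73e-05) and 1 called TNFAIP3 (0.00296). Soft and stiff libraries were free of overlap for NFKBIA, with those on soft gels higher (19.8% of the genes tested), and for NFKB1, with those on soft gels lower (11.7%).

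For no gene of the set was a difference between the effects of soft and stiff selection called, and 0% of the genes tested were called. VCAM1 and NFKB1 had an unadjusted p under 0.05 in limma, as did 1627 genes in all, and 41 genes had an adjusted p under 0.05. With array weights 353 genes were called, VCAM1 among them. The intervals leave room for a difference. For RELB they allowed -0.31 to 0.28 on the log2 scale, for TRAF1 -0.24 to 0.47, for NFKBIA -0.24 to 0.31, for ICAM1 -0.23 to 0.29, for NFKB2 -0.08 to 0.27 and for BIRC2 -0.18 to 0.12.

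Within groups, several genes of the set deviated together from one library to the next. With group means removed, BIRC3 and ICAM1 had a Pearson's r of 0.866 over the 16 libraries, ICAM1 and TNFAIP3 0.665, BIRC3 and VCAM1 0.650, NFKB2 and RELB 0.647, and NFKB2 and NFKBIA, the lowest of the 45 pairs, -0.383. These libraries share their depth and preparation, and the correlations are descriptions. In soft-selected replicate 3 and in ancestral stiff replicate 1, 9 of the 10 genes were above their group mean, with a median deviation of 0.16 and 0.10 on the log2 scale. In ancestral stiff replicate 2, 1 of the 10 was.

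Other genes had patterns close to those of the set over the 16 libraries, on log2(FPKM + 1). The closest by Pearson's r to BIRC3 were KLHL4 (0.977) and RPS6KA3 (0.974), and those to BIRC2 were AP1S2 (0.919) and USP27X (0.909). These 4 genes lie on the X chromosome, as does PDHA1, the closest to TRAF1 (0.947, followed by SOD1 at 0.930). VCAM1 was closest to CDH11, which encodes cadherin 11, and to SORBS2 (0.986 each), ICAM1 to the complement protease gene C1R (0.957) and the chemokine gene CXCL2 (0.925). NFKBIA was closest to the adhesion ligand gene CD58 (0.935) and to B2M, the light chain of MHC class I (0.931), and TNFAIP3 to TNIP1, which encodes a protein that binds A20 (0.902), and LCN2 (0.896). RELB was closest to ALKBH7 (0.948) and FBXL15 (0.941), NFKB2 to ATP5E (0.917) and GGH (0.914), and NFKB1 to TWF1 (0.877) and OGFRL1 (0.876). A likeness of this kind rests largely on the 4 group means.

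Several chromosomes had shifted medians in the comparisons of selected with ancestral cells, the X chromosome the most. The 397 tested genes of the X chromosome had a median log2 fold change of -0.38 on soft and -0.43 on stiff gels, the lowest of all chromosomes, and 52.9% and 59.2% of them were called lower. None of the 10 genes lies on it, but 4 genes of the pathway do. IKBKG encodes NEMO, the regulatory subunit of IKK, and was at 24.8 ± 3.57 in ancestral and 14.8 ± 2.43 (SD, n = 4) in stiff-selected cells (log2 fold change -0.71, limma adjusted p = 0.000765), and at 22.6 ± 2.52 and 16.9 ± 4.26 on soft gels (-0.42, limma adjusted p = 0.0206, not called). IRAK1, a kinase of IL-1 signaling, differed by -0.65 on stiff gels (limma adjusted p = 0.000866) and by -0.35 on soft gels (limma adjusted p = 0.0358, not called). TAB3, a partner of the kinase TAK1, was lower in both selected populations (-0.49 and -0.48, limma adjusted p = 0.00322 and 0.00325), as was XIAP, an inhibitor of apoptosis (-0.61 and -0.44, limma adjusted p = 0.000897 and 0.00675). On chromosome 4, which holds NFKB1, 30.3% and 27.7% of the tested genes were called lower on soft and stiff gels. On chromosome 14, which holds NFKBIA, 49.8% and 42.3% were called higher. On chromosome 21, 42.7% and 18.2% were called lower. The part of these chromosomes and of the X chromosome in the values of the genes was not tested.

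Across the wider pathway, 87 further genes were placed in 7 lists by role, and 78 of them were tested. In soft-selected against ancestral cells 12 were higher and 18 lower, with a median log2 fold change of -0.01, beside the 21.5% and 15.4% of all genes tested. In stiff-selected against ancestral cells 7 were higher and 20 lower, with a median of -0.08, beside 18.4% and 10.8%. Scaling by the median of ratios gave 3 higher and 25 lower in the latter. The split of calls over all genes also turned towards lower with this scaling, as given above. Its median log2 fold change over all genes was -0.02 in place of 0.05. The shares of 18.4% and 10.8% are therefore not the background of the scaled counts. Without stiff-selected replicate 3 there were 5 higher and 12 lower, and the shares over all genes in that fit are not given here. Without the 4 genes of the X chromosome the counts were 12 higher and 16 lower on soft, and 7 and 16 on stiff gels.

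Among the other subunits and IkB proteins, RELA and REL were not called in either comparison. RELA, the main transactivating subunit, had 0.14 on both gels (limma adjusted p = 0.139 and 0.161), and ranged from 99.7 to 140 FPKM over the 16 libraries. NFKBIE, an IkB protein, was lower in both (-0.35 and -0.25, limma adjusted p = 0.000373 and 0.00551). NFKBIZ, a nuclear IkB protein, was higher in both (0.39 and 0.30, limma adjusted p = 0.000768 and 0.00692). BCL3, another nuclear IkB protein, was lower in soft-selected cells (-0.42, limma adjusted p = 0.000522), with -0.26 in stiff-selected cells (adjusted p = 0.0176, not called). In all, 1 of 7 genes of this list was higher and 2 were lower in soft-selected cells, and 1 and 1 on stiff gels. Beside them, 21.5% of all genes tested were higher and 15.4% lower on soft gels, and 18.4% and 10.8% on stiff gels.

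Of 10 kinase and kinase complex genes, 1 was higher and 2 were lower in soft-selected cells, and none was higher and 3 were lower in stiff-selected cells. MAP3K14, which encodes the kinase NIK, was lower in both. It was at 18.9 ± 0.548 against 23.7 ± 1.14 on soft gels and 19.8 ± 1.30 against 24.3 ± 2.32 (SD, n = 4) on stiff gels. The log2 fold changes were -0.32 and -0.28 (limma adjusted p = 0.000896 and 0.00289). These are RNA levels, and the level of NIK protein was not tested. TBK1, an IKK-related kinase, was higher in soft-selected cells (0.23, limma adjusted p = 0.00339), with 0.19 in stiff-selected cells (adjusted p = 0.0129, not called). Of 14 adaptors and ubiquitin ligases, 2 were higher and 4 lower in soft-selected cells, and 2 and 3 on stiff gels. The counts of both lists stand beside 21.5% higher and 15.4% lower of all genes tested on soft gels, and 18.4% and 10.8% on stiff gels. RNF31, the catalytic subunit of the linear ubiquitin ligase LUBAC, was higher in both (0.47 and 0.49, limma adjusted p = 1.36e-05 and 1.3e-05), RIPK1, a kinase of TNF signaling, was higher in both (0.30 and 0.21, limma adjusted p = 5.03e-05 and 0.00166) and IRAK2 was lower in both (-0.51 and -0.50, limma adjusted p = 0.000338 and 0.000586).

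Of 7 negative regulators, N4BP1 was higher in soft-selected cells (0.46, limma adjusted p = 3.44e-05; 0.20 in stiff-selected cells, adjusted p = 0.0245). TNIP2 was lower in stiff-selected cells (-0.36, limma adjusted p = 0.00652; -0.16 in soft-selected cells, adjusted p = 0.181). The remaining 6 in each comparison were not called. Of 12 receptors, 2 were higher and 2 lower in soft-selected cells, and 1 and 2 on stiff gels. For these lists too, the shares of all genes tested were 21.5% higher and 15.4% lower on soft gels, and 18.4% and 10.8% on stiff gels. The IL-1 receptor chains IL1R1 (-0.58 and -0.51, limma adjusted p = 0.000745 and 0.00264) and IL1RAP (-0.42 and -0.57, limma adjusted p = 0.000272 and 2.22e-05) were lower in both. TNFRSF1B, the second TNF receptor, was higher in soft-selected cells (0.50, limma adjusted p = 0.000733), with a value of 0.14 in stiff-selected cells (adjusted p = 0.294, not called). TLR4, the lipopolysaccharide receptor, was higher in both (0.55 and 0.64, limma adjusted p = 0.000756 and 0.00026). Of 9 ligand genes, 4 passed the filter on low values, and TNF and LTA did not, with at most 0.333 and 0.425 FPKM in any library. IL1A was higher in soft-selected cells (0.64, limma adjusted p = 0.000235), at 5.29 ± 0.479 against 3.05 ± 0.316 (SD, n = 4), with 0.24 in stiff-selected cells (adjusted p = 0.105, not called). LTB, at 0.478 ± 0.239 against 1.27 ± 0.351, was lower in stiff-selected cells (-0.62, limma adjusted p = 0.00634), with -0.43 in soft-selected cells (adjusted p = 0.0366, not called). Its stiff-selected libraries were all below an FPKM of 1, so that LTB passed the filter through other groups. A gene of this level in stiff-selected cells had to be higher elsewhere to be tested.

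Of 28 other NF-kB target genes, 24 were tested. On soft gels 4 were higher and 8 lower in selected cells, with a median log2 fold change of -0.25, and on stiff gels 3 were higher and 9 lower, with a median of -0.35. Over all genes tested, 21.5% were called higher and 15.4% lower on soft gels, and 18.4% and 10.8% on stiff gels. SAA1, an acute-phase protein gene whose close paralog SAA2 may share reads with it, was lower in both (-2.33 and -2.06, limma adjusted p = 1.72e-07 and 1.39e-06). NUAK2, a kinase gene, was lower in both (-0.93 and -0.52, limma adjusted p = 4.09e-07 and 0.000229). CSF2, which encodes the cytokine GM-CSF, was also lower in both, at 4.46 ± 1.28 against 13.1 ± 2.24 (SD, n = 4) on soft gels and 4.07 ± 0.619 against 11.1 ± 1.15 on stiff gels (-1.38 and -1.26, limma adjusted p = 1.29e-06 and 6.75e-06). GADD45B, a stress response gene, went the other way and was higher in both, at 101 ± 13.1 against 46.7 ± 2.93 on soft gels and 72.8 ± 3.49 against 46.6 ± 2.28 on stiff gels (1.08 and 0.63, limma adjusted p = 1.38e-08 and 8.83e-06).

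**Figure D4:**
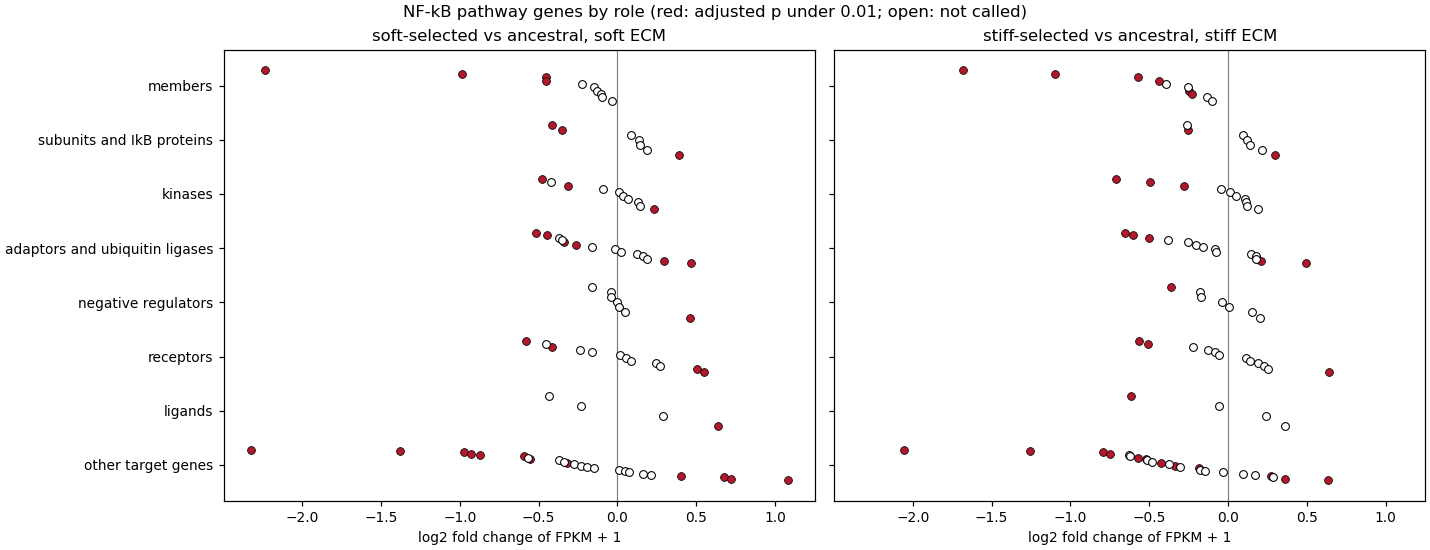
Log2 fold changes of FPKM + 1 (horizontal axes) of the 10 genes and of the 78 tested pathway genes by role, for selected against ancestral cells on soft (left) and on stiff gels (right), with red points at an adjusted p under 0.01. The 10 genes lie below 0 in both panels, while each pathway list has points on both sides of 0.

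In the comparison of both selected populations, 7 of the 78 pathway genes were higher and none was lower, with a median log2 fold change of 0.10, beside 3.85% and 2.59% of all genes tested. Quantile normalization gave 8 higher and 1 lower. The count was 4 without soft-selected replicate 3, 3 without stiff-selected replicate 1 and 2 with only the groups compared in the fit. The 811 calls over all genes also became fewer in each of these settings, and leaving out 1 library gave 333 to 1134. NFKBIZ had a log2 change of 0.67 (limma adjusted p = 0.000128), RIPK1 of 0.20 (0.00752), GADD45B of 0.45 (0.00138), and the cytokine genes CCL5 and IL6 of 0.88 and 0.75 (limma adjusted p = 0.00114 and 0.00212). IL6 was at 21.2 ± 4.71 and 12.2 ± 2.06 (SD, n = 4).

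In ancestral cells, 6 pathway genes were higher and 2 lower on soft than on stiff gels, with a median of 0.09, beside 7.54% and 3.87% of all genes tested. NFKBIZ and BCL3 were higher on soft gels (0.58 and 0.50, limma adjusted p = 0.000368 and 0.000796), as were IKBKE, an IKK-related kinase (0.39, limma adjusted p = 0.00333), ZC3H12A, an RNase that degrades cytokine transcripts (0.41, limma adjusted p = 0.00713), the complement factor gene CFB (0.87, limma adjusted p = 0.00345) and CXCL2 (0.74, limma adjusted p = 0.00437). CHUK, which encodes IKK-alpha, and PLAU, which encodes urokinase, were lower (-0.29 and -0.38, limma adjusted p = 0.00249 and 0.00553). This count of 8 fell to 2 without ancestral soft replicate 2, ancestral stiff replicate 2 or ancestral stiff replicate 3. It fell to 4 without ancestral soft replicate 4 and to 5 without ancestral soft replicate 3. The 1438 calls over all genes also became fewer in each of these fits, and leaving out 1 library gave 574 to 1837. For the difference between the effects of soft and stiff selection, 0 of the 78 genes were called in limma, 2 with array weights and 1 without soft-selected replicate 4.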

How the data were processed

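Ribodepleted total RNA was sequenced as read pairs in 16 libraries, 4 per group. The authors deposited FPKM values of 19468 genes in 1 table. STAR and hg19 are named in the submitters' processing notes, with no version, and neither the counter nor the gene annotation is given in the sources used here. Columns were assigned to samples by name, and all sample columns were used.

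Dividing FPKM by the value of a single read gave whole reads for 100% of 17735 genes with any value above 0, within 0.001 reads. For each gene, that value came from the smallest length tried that made all its reads whole. Whole reads were thus the criterion and not a check. A factor common to all reads of a gene would go unseen. The squared differences between pairs of replicate libraries were 4.36 to 47.4 times those that sampling noise gives (chi-square per degree of freedom).

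Genes with an FPKM of 1 or more in 4 or more libraries (12604) were tested on log2(FPKM + 1) with limma 3.58.1 (R 4.3.3), in a single fit of the 4 group means over all 16 libraries with a prior trended by level. P-values were adjusted over all genes tested and called under 0.01. The methods of the study refer to an earlier publication for its test. Tried as alternatives were another pseudocount (0.1), no filter and a filter on the mean, TPM, scaling by the median of ratios, quantile normalization, a fit of only the groups compared, an untrended prior, array weights, a block for the replicate number, a threshold of 0.05, voom on recovered reads, and leaving out each library. In libraries simulated for soft-selected against ancestral cells on soft gels (12414 genes), 95.5% of 67 genes changed 1.5-fold, 97.0% of 67 changed 2-fold and 98.5% of 66 changed 4-fold were recovered, and 2 unchanged genes were called. All genes were simulated with the same fixed spread between libraries beyond sampling noise. This recovery need not hold for genes that varied more, such as TNFAIP3 in soft-selected cells (SD of 23.7% of the mean). Promoters were searched and figures drawn in Python 3.11.15 (numpy 2.4.6, scipy 1.17.1, pandas 2.3.3, matplotlib 3.10.9). RefSeq entries were found for 19417 of the 19468 genes by gene identifier.

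The 10 genes, the pathway lists and the tests were chosen with earlier results of these data known. By rule, the text names all 10 genes, for each list and comparison up to 3 called genes with the smallest p, for each of the 10 genes the 2 tested genes with the highest Pearson's r, and the 4 tested genes on each side of BIRC3 and BIRC2. RELA, REL, TNF, LTA and XIAP, and the values of named pathway genes in a comparison where the rule did not pick them, were added after their values were seen. A further blood cell marker is not reported here.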

Additional observations from a re-analysis of the deposited data

Results flagged for a closer look

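Of 40 groups of 4 libraries (10 genes in 4 groups), 1 had a library far from the others by Dixon's criterion, where chance gives about 2. BIRC3 in ancestral stiff replicate 1 had an FPKM of 59.7, while the other 3 libraries of that group had 48.7 to 50.3. In this library 9 of the 10 genes were above their group mean. Without it, the log2 fold change of BIRC3 in stiff-selected against ancestral cells on stiff gels was -1.03 (limma adjusted p = 4.51e-07), in place of -1.10.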

How the results depend on the processing

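The calls of BIRC3, VCAM1 and RELB in both comparisons of selected with ancestral cells, of TRAF1 on stiff gels and of NFKBIA in ancestral cells held in all 11 alternatives and all 16 fits without 1 library. Those of TRAF1 on soft gels, NFKB1 and NFKB2 on stiff gels, and TNFAIP3 and NFKBIA between selected populations did not. With an adjusted p under 0.05, 7 of the 10 genes were called in soft-selected against ancestral cells. The unadjusted p in limma was under 0.05 there for 7 of the 10 and for 7240 of the 12604 genes tested. In stiff-selected against ancestral cells, an adjusted p under 0.05 called 5610 genes in all, and array weights called 45 pathway genes and 6654 genes in all. Between selected populations, 1 of the 10 genes was called with no filter, scaling by the median of ratios, quantile normalization and voom, and 0 with only the groups compared, which left 2 pathway genes and 126 genes in all. Array weights gave 17 and 1646 there, and an adjusted p under 0.05 gave 15 and 2259. Between ancestral cells on soft and stiff gels, 4 pathway genes were called with no filter and 13 with only the groups compared, array weights called 5 of the 10 genes, 40 pathway genes and 6084 in all, an adjusted p under 0.05 gave 4, 14 and 3186, and voom called 2 of the 10. For the difference between both effects of selection, the calls over all genes were 1 with no filter, 2 with quantile normalization and 41 at an adjusted p under 0.05, and array weights called 1 of the 10 genes, 2 pathway genes and 353 in all. The cause of these changes was not tested, apart from the looser threshold.

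Leaving out 1 library gave 3 to 4, 4 to 7, 1 to 3, 1 to 3 and 0 to 0 calls among the 10 genes in the 5 comparisons, in the order soft-selected against ancestral, stiff-selected against ancestral, soft-selected against stiff-selected, ancestral soft against stiff, and the difference between effects. Among pathway genes it gave 25 to 31, 17 to 30, 3 to 9, 2 to 10 and 0 to 1, and among all genes 3822 to 4911, 2713 to 4067, 333 to 1134, 574 to 1837 and 0 to 14. Over all genes, the 811 calls between selected populations became 531 and 365 without soft-selected replicates 1 and 3, and 333, 346 and 486 without stiff-selected replicates 1, 2 and 3. The 1438 calls between ancestral groups became 861, 615, 782 and 800 without ancestral soft replicates 1 to 4, and 574 and 676 without ancestral stiff replicates 2 and 3. For the difference between effects, 2 genes were called without ancestral stiff replicate 1, 10 and 14 without soft-selected replicates 1 and 4, and 7 and 1 without stiff-selected replicates 3 and 4. Over all genes, the 811 calls between selected populations became 531 and 365 without soft-selected replicates 1 and 3, and 333, 346 and 486 without stiff-selected replicates 1, 2 and 3. The 1438 calls between ancestral groups became 861, 615, 782 and 800 without ancestral soft replicates 1 to 4, and 574 and 676 without ancestral stiff replicates 2 and 3. For the difference between effects, 2 genes were called without ancestral stiff replicate 1, 10 and 14 without soft-selected replicates 1 and 4, and 7 and 1 without stiff-selected replicates 3 and 4.

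Whether the replicate numbers pair the libraries was not settled, since 4 libraries per group are few for this. In 0 of 6 pairs of groups were all 4 correlations of deviations over 0.1 (range -0.186 to 0.306). Of the 16 libraries, 6 correlated best with one of their own number. With the replicate number as a block, 1 of the 10 genes was called between selected populations (TNFAIP3 lost, adjusted p = 0.0141), and the counts among the 10 genes did not change in the other 4 comparisons.

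Values that changed sign were called in no setting that turned them. In soft-selected against ancestral cells they were NFKB1 with TPM (0.0071) and TNFAIP3 with array weights (0.032). Between selected populations they were NFKB1 with TPM (0.0088), BIRC2 with scaling by the median of ratios (-0.020) and voom (-0.022), VCAM1 with quantile normalization (0.011) and TRAF1 with array weights (0.015). In ancestral cells they were BIRC2 with scaling (-0.0076) and voom (-0.0072) and NFKB2 with quantile normalization (0.0028) and array weights (0.029), and for the difference between effects RELB with scaling (0.0030), array weights (0.063) and voom (0.0049). A further 30 changed sign when 1 library was left out. NFKB1 then ranged from -0.064 to 0.019 in soft-selected against ancestral cells. Between selected populations BIRC2 ranged from -0.019 to 0.046, VCAM1 from -0.11 to 0.022, NFKB1 from -0.032 to 0.051, RELB from -0.0014 to 0.20 and TRAF1 from -0.15 to 0.025. NFKB2 ranged from -0.023 to 0.014 in ancestral cells, and for the difference between effects BIRC2 ranged from -0.059 to 0.011, ICAM1 from -0.051 to 0.098, RELB from -0.093 to 0.11 and NFKBIA from -0.057 to 0.093.

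Depth limits VCAM1 most, with 7 to 31 reads in a selected library, and the 4 libraries per group limit the test of a difference between effects of selection (for RELB an interval of -0.31 to 0.28).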
